A study of Mus musculus with 2 samples.

Results

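The genes described here are 35 mouse genes of the endoplasmic reticulum (ER) folding and secretory pathway. They were chosen as a list of symbols and not by a cut on their values, though with earlier results of these data known. All 35 were found in both matrices, among 31053 genes. They were followed through luminal epithelial cells of the mammary gland to ask whether the folding load follows milk output. The cells were sorted from FVB/NJ mice aged 3.5 months. Their RNA was read cell by cell in droplets by a method that counts unique molecular identifiers (UMIs) at the 3ʹ end of transcripts. WT mice carried a Sox9-GFP reporter. C3-TAg mice carried the same reporter and the C3-TAg transgene, a tumour model in which simian virus T antigens, made in mammary epithelium, inactivate p53 and Rb. There was 1 library per genotype, and the labels do not say how many animals or glands went into each. No difference between the libraries therefore has a replicate check and no p-value was computed. Intervals are at 95%. Those of levels, ratios and differences of ratios cover Poisson counting error only, and PCR copies and free RNA in the droplets are further sources of error. Intervals of a list's median cover the spread over its members, counted as if the genes were independent.

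In each library, cells were put into 3 classes by 8 genes that are not among the 35. Cells with at least 5 UMIs per 10000 of Areg, Pgr, Esr1 and Cited1 were called hormone-sensing. The other cells were called milk-high where Csn1s1, Csn1s2a, Csn2 and Csn3, which encode caseins, made up at least 0.5% of UMIs, and milk-low below that. WT held 2720 hormone-sensing, 3750 milk-high and 576 milk-low cells. C3-TAg held 2027, 2491 and 3396. The median depth was 9431.5, 11802 and 7609 UMIs per cell in the WT classes and 7829, 10190 and 8339.5 in the C3-TAg classes, in the same order. Levels are counts per 1000000 UMIs outside the 8 genes (CPM), summed over the cells of a class. Because reads come from the 3ʹ end and are not scaled by length, levels are compared between cells and not between genes. A gene was called higher or lower between 2 sums of cells from a ratio of 1.5, if it had at least 20 UMIs over both.

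The classes are ranges of a score. Between 0.25% and 1% casein lay 226 of the WT milk-low and 354 of the WT milk-high cells, and 325 and 491 in C3-TAg. Markers outside the rule went with the class names. Lalba, the milk protein alpha-lactalbumin, was at 3378 CPM in WT milk-high, 134 in milk-low and 71.0 in hormone-sensing cells, and at 939, 21.0 and 32.3 in C3-TAg. Prlr, the prolactin receptor, was at 2517 in WT hormone-sensing cells against 76.4 in milk-high cells. The milk-low classes were unlike each other. Their median casein share was 0.181% of UMIs in WT and 0.0200% in C3-TAg. Cells with at least 2 UMIs of a list of 20 G2M genes made up 1.91% of WT and 76.4% of C3-TAg milk-low cells, against 1.84% and 71.3% of milk-high cells and 1.65% and 20.4% of hormone-sensing cells. The WT milk-low class also held a summed level of 216 of 8 basal markers, 43.1 of 7 immune, 47.7 of 6 endothelial and 124 of 6 fibroblast markers, of which Dcn made up 107. The fibroblast sum was 5.22 in WT milk-high cells. The Krt14 level makes up most of the basal sum in C3-TAg, at 412 of 434 in milk-low and 477 of 481 in milk-high cells, with Krt5 at 0.8 and 0.1. WT hormone-sensing cells held 707 CPM of Dcn, a gene on the fibroblast list, with Col1a1 at 0.5 and Lum at 0. Plasma cell markers, the other secretory cell type looked for, summed to at most 0.8 in any class. How far other cell types, the cell cycle and free RNA shape the levels below was not tested beyond the left-out groups of cells given beside the results.

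Proteins bound for secretion are targeted to the ER by the signal recognition particle, threaded through the Sec61 channel with the help of the TRAP complex, and freed of their signal peptide. Chaperones led by BiP, the product of Hspa5, and the protein disulfide isomerases then fold them, and misfolded chains are returned to the cytosol for degradation. When folding falls behind, 3 sensors start the unfolded protein response. The sensor encoded by Ern1 splices the Xbp1 transcript, which gene-level counts do not show, the protein of Atf6 is cleaved to a transcription factor, and PERK favours translation of Atf4. In the mammary gland, alveolar luminal cells make caseins and other milk proteins, and Xbp1 is known as a regulator of their secretory capacity.

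The 35 genes include a group long known to share a promoter element, the ER stress response element, which is bound by NF-Y together with ATF6 or XBP1. It is written here as CCAAT, then 9 bases, then CCACG, and was searched on both strands from 250 bases before to 50 bases after the start of each gene in RefSeq. Promoters were held for 30 of the 35 genes, and 8 of these carried it, namely those of Hspa5, Hsp90b1, Calr, Canx, Pdia6, Dnajc3, Creld2 and Syvn1. Of all 32851 promoters of the same length, 39 carried it (0.119%). The element was first defined on promoters of this kind, so the count describes the list and is not a finding about these cells. The promoters of 4 of these genes, whose levels the results below turn on, are printed 5ʹ to 3ʹ along the gene's strand with the element in capitals, from RefSeq on GRCm38.p6. That of Hspa5 spans chr2:34771840-34772139 on the plus strand, with the centre of the element 56 bases before the start. That of Hsp90b1 spans chr10:86705395-86705694 on the minus strand and holds a copy in each orientation, 203 and 98 bases before the start. That of Creld2 spans chr15:88819396-88819695 on the plus strand, with the element 117 bases before the start in the reverse orientation. That of Pdia6 spans chr12:17266339-17266638 on the plus strand, with the element 89 bases before the start.
Hspa5: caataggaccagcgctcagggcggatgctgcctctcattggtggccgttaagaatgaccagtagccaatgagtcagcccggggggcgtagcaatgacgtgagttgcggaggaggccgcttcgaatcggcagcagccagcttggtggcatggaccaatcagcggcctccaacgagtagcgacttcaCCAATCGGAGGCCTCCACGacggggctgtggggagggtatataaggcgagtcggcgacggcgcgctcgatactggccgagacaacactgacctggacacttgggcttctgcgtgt
Hsp90b1: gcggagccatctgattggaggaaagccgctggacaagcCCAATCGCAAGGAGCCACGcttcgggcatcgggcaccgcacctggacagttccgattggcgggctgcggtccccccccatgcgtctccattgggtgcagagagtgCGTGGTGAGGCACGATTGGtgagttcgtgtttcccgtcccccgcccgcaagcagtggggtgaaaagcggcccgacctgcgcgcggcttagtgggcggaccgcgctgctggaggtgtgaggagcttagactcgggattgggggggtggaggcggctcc
Creld2: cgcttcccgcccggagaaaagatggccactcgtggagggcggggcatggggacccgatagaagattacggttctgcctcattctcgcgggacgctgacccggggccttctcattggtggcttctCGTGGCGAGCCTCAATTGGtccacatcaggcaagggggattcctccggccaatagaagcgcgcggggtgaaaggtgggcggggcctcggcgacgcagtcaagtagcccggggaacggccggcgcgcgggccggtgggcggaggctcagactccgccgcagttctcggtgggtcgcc
Pdia6: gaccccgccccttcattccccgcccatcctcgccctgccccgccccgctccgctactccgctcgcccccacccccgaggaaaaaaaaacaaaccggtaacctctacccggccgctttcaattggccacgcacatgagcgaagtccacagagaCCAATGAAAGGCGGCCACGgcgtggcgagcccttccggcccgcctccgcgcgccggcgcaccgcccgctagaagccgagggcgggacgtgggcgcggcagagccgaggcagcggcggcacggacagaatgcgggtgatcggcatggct

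Another element of XBP1, TGACGTGG, was in none of the 30 promoters and in 222 of all promoters (0.676%). The element TGATGNAA, known as a site of ATF4 with C/EBP partners, was in those of Trib3 and Herpud1 and in 1304 of all promoters (3.97%). A missing match says only that these letters are not in the window. The 8 genes with the ER stress response element had a median log2 ratio of 0.53 between milk-high and milk-low cells in WT and of -0.01 in C3-TAg. The 22 genes whose promoters lacked it had medians of 0.55 and 0.15.

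Summed over all 35 genes, the level followed casein output most clearly in WT. The sum was 8207 CPM in WT milk-high cells, 5510 in milk-low cells and 6300 in hormone-sensing cells. Milk-high cells were thus 1.49-fold (1.47 to 1.51) above milk-low cells. In C3-TAg the sum was 7091 in milk-high, 6271 in milk-low and 6444 in hormone-sensing cells, a milk-high to milk-low ratio of 1.13 (1.12 to 1.14). The C3-TAg classes thus lay between the lowest and the highest WT class. Single cells overlapped widely. Between the lower and upper quartiles of cells, the 35 genes made up 0.578% to 0.979% of UMIs in WT milk-high cells and 0.421% to 0.627% in WT milk-low cells, and 0.554% to 0.822% and 0.501% to 0.713% in C3-TAg.

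**Figure D1:**
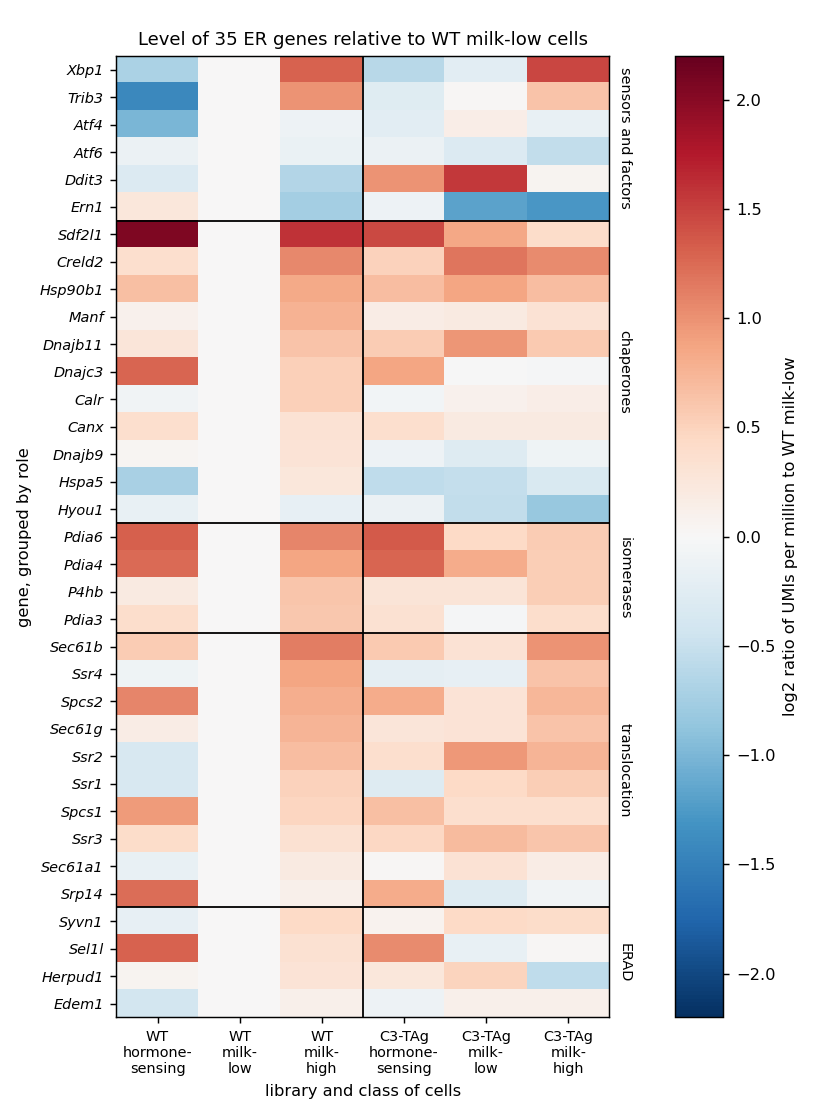
Level of each of the 35 genes in the 3 classes of both libraries as a log2 ratio to WT milk-low cells (colour, red for higher), with genes in rows grouped by role and classes in columns. Xbp1 was red in the milk-high column of both libraries, whereas Sdf2l1, Pdia4 and Pdia6 were highest in hormone-sensing cells, and Ddit3 was highest in C3-TAg milk-low cells.

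Between milk-high and milk-low cells of WT, 16 of the 35 genes were higher and 2 were lower in milk-high cells. Of 12296 genes measured in that comparison, 9.56% were higher and 22.1% lower, so the 16 lie well above and the 2 below the share among all genes. The median log2 ratio of the 35 was 0.52, with an interval over members of 0.31 to 0.75, against -0.15 over all genes. The 4 disulfide isomerases were all among the higher genes, although only Pdia6 was so in all 16 alternatives, Pdia4 in 15, P4hb in 12 and Pdia3 in 9. Also higher were 5 of 11 chaperones and cochaperones, 5 of 10 genes of targeting, translocation and signal cleavage, 2 of 6 sensors and transcription factors, and none of 4 genes of ER-associated degradation. The 6 sensors and transcription factors had a median of -0.13 although their sum was 1.36-fold higher, since Xbp1 alone, at 507 against 206 CPM, accounts for the higher sum. In C3-TAg, 4 genes were higher and 2 lower, where 9.72% of 13227 genes were higher and 28.4% lower. The higher share is close to that of all genes. The median was -0.0004 (-0.13 to 0.18) against -0.25 over all genes. Scaling by trimmed means (TMM), which sets a typical gene to no difference, adds 0.23 to each log2 ratio in WT and 0.25 in C3-TAg. The medians were then 0.75 and 0.25, with 21 genes higher and 0 lower in WT and 6 higher and 2 lower in C3-TAg.

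**Figure D2:**
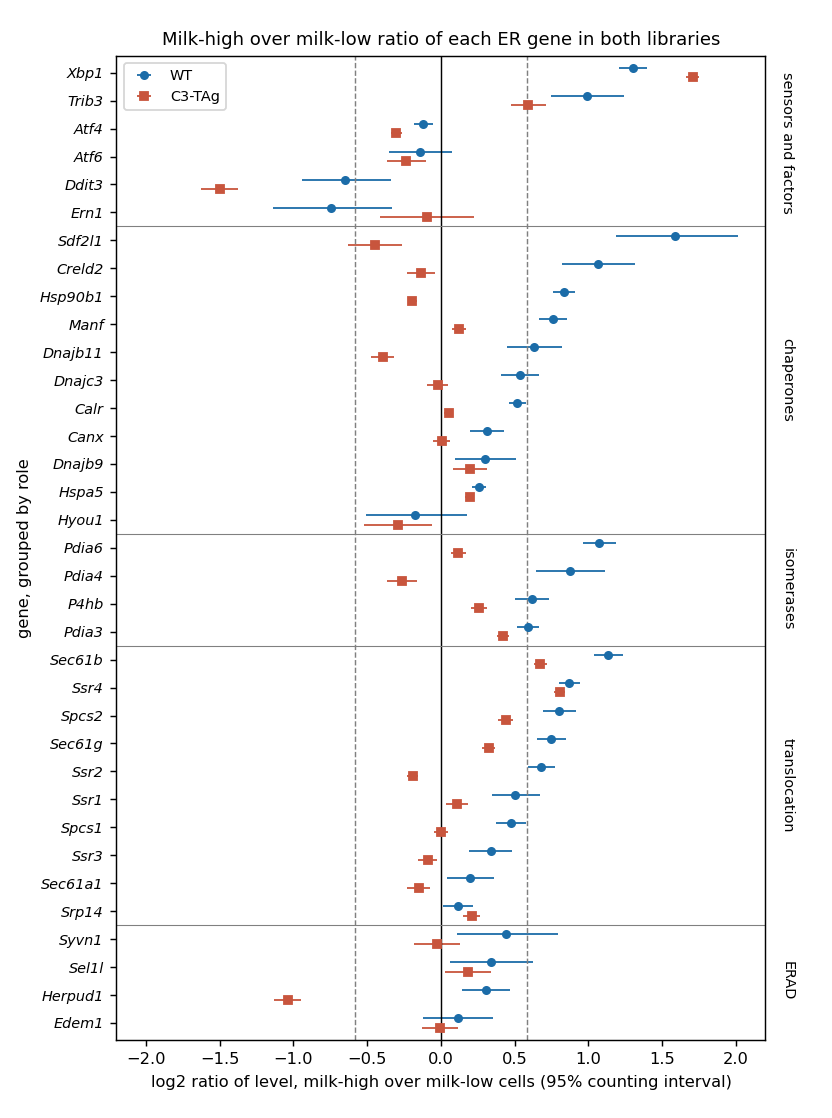
Log2 ratio of the level in milk-high over milk-low cells for each gene in WT (circles) and C3-TAg (squares), with 95% counting intervals and dashed lines at a ratio of 1.5 in either direction. WT points lie to the right of C3-TAg points for 32 of the 35 genes, the exceptions being Xbp1, Ern1 and Srp14. The share of all genes that lie this way was not computed. The median difference over 12066 genes measured in both libraries was also below 0, at -0.06.

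Xbp1 had the widest difference in C3-TAg. Xbp1 (chr11:5520659-5525893, plus strand, GRCm38) was at 507 CPM in WT milk-high, 206 in milk-low and 126 in hormone-sensing cells. C3-TAg levels were 568, 174 and 134. Milk-high cells were the high class in both libraries, 2.46-fold (2.31 to 2.63) above milk-low cells in WT and 3.26-fold (3.17 to 3.37) in C3-TAg. Trib3 encodes a pseudokinase that is a target of ATF4 and CHOP. Its level was 60.7 in WT milk-high against 30.6 in milk-low cells, a ratio of 1.98 (1.68 to 2.36). In C3-TAg it was 47.1 against 31.2, a ratio of 1.51 (1.39 to 1.64) that lies at the threshold and was below it in 7 of 16 alternatives, among them leaving out cells with G2M, other cell type or dissociation UMIs.

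Ddit3, which encodes the transcription factor CHOP of the prolonged stress response, went the other way. Ddit3 (chr10:127290774-127296288, plus strand) was at 14.6 CPM in WT milk-high, 22.8 in milk-low and 18.6 in hormone-sensing cells. C3-TAg levels were 23.7, 67.1 and 45.5. Milk-low cells were the high class in both libraries, 1.57-fold above milk-high cells in WT and 2.83-fold in C3-TAg. The WT difference was under 1.5-fold with TMM, with a casein limit of 1%, and without cells holding UMIs of other cell types or 0.5% or more dissociation UMIs. A list of 12 dissociation and immediate early genes summed to 5655 in C3-TAg milk-low against 3023 in milk-high cells, and to 4499 against 3506 in WT. Its part in the Ddit3 level was not tested beyond leaving out those cells. The C3-TAg log2 ratio was then -0.96, against -1.50 with all cells, and the call held. Without cells with at least 2 G2M UMIs it was -1.15. Ern1 was at 7.81 in WT milk-high and 13.1 in milk-low cells, a difference past the threshold in 11 of 16 alternatives. In C3-TAg it was at 5.41 and 5.78. Atf4 was at 428 against 465 in WT and 417 against 514 in C3-TAg, and Atf6 at 38.6 against 42.6 and 29.3 against 34.6, all within 1.5-fold.

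Among the chaperones, the genes that differed most in WT did not share that difference in C3-TAg. Sdf2l1 (chr16:17130138-17132383, minus strand) encodes a cochaperone that works with BiP and J-domain proteins. It was at 33.0 CPM in WT milk-high, 11.0 in milk-low and 45.3 in hormone-sensing cells, and at 14.5, 19.7 and 30.2 in C3-TAg. The WT milk-low class was the lowest of the 6 and hormone-sensing cells were the high class in both libraries. Milk-high cells of WT were 3.00-fold (2.28 to 4.04) above milk-low cells, whereas the C3-TAg ratio was 0.73 (0.65 to 0.83). Creld2, an ER-stress-induced gene with a role in folding, was at 62.6 against 30.0 in WT, 2.09-fold (1.76 to 2.49), and at 61.4 against 67.4 in C3-TAg. Hsp90b1, which encodes the ER member of the HSP90 family, was at 574 against 322 in WT, 1.78-fold (1.69 to 1.88), and at 516 against 590 in C3-TAg. The other higher chaperone genes in WT were Manf at 335 against 198 and the cochaperone gene Dnajb11 at 82.9 against 53.4, with C3-TAg levels of 248 against 227 and 79.7 against 105.

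Hspa5 (chr2:34771970-34777547, plus strand) was within 1.5-fold in both libraries. Its level was 997 CPM in WT milk-high against 835 in milk-low cells, and 662 against 578 in C3-TAg. The ratios were 1.19 and 1.15, so within these classes Hspa5 separated the libraries more than milk-high from milk-low cells. In hormone-sensing cells it was at 566 CPM in C3-TAg and 507 in WT, the other way round. Calr and Canx encode the lectin chaperones of glycoprotein folding. Calr was at 731 against 511 in WT and 566 against 546 in C3-TAg, and Canx at 176 against 142 and 163 against 162. Dnajb9, Dnajc3 and Hyou1 were also within 1.5-fold in both libraries.

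The disulfide isomerases form and rearrange disulfide bonds in new proteins, caseins among them. Pdia6 (chr12:17266545-17284770, plus strand) was at 310 CPM in WT milk-high and 147 in milk-low cells, with an interval of the ratio of 1.95 to 2.27, and at 217 and 200 in C3-TAg. Pdia4 was at 62.4 and 34.0 in WT, 1.83-fold, and at 49.6 and 59.6 in C3-TAg. P4hb was at 210 and 137 in WT and 199 and 166 in C3-TAg. Pdia3, which acts with the lectin chaperones, was at 495 and 328 in WT, 1.51-fold and so at the threshold, and at 429 and 321 in C3-TAg. Within WT, hormone-sensing cells held as much Pdia4 and Pdia6 as milk-high cells or more, at 81.0 and 367.

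Of the translocation genes, Sec61b and Ssr4 had the same direction and passed the threshold in both libraries. Sec61b (chr4:47474658-47483242, plus strand), a small subunit of the channel, was at 396 CPM in WT milk-high and 180 in milk-low cells, 2.19-fold (2.05 to 2.35). In C3-TAg it was at 357 and 224, 1.59-fold (1.55 to 1.64). Ssr4 (chrX:73787028-73790830, plus strand), a subunit of the TRAP complex, was at 622 and 340 in WT and 524 and 300 in C3-TAg, 1.83-fold (1.74 to 1.92) and 1.75-fold (1.70 to 1.79). These 2 genes, like Xbp1, were above 1.5-fold in every alternative run. Sec61g, the signal peptidase gene Spcs2 and the TRAP gene Ssr2 passed the threshold in WT and not in C3-TAg, at 1.68-, 1.74- and 1.60-fold in WT. Their C3-TAg log2 ratios were 0.32, 0.44 and -0.19. Sec61a1, the gene of the channel's pore subunit, had log2 ratios of 0.20 and -0.15, and Srp14, a signal recognition particle gene, 0.11 and 0.21. The other TRAP and signal peptidase genes, Ssr1, Ssr3 and Spcs1, were within 1.5-fold in both.

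Of the 4 ER-associated degradation genes, Herpud1 passed the threshold, and only in C3-TAg. In WT none was higher or lower, with log2 ratios from 0.11 for Edem1 to 0.44 for Syvn1. Herpud1, which helps assemble the degradation complex, was at 88.1 CPM in WT milk-high and 71.3 in milk-low cells. In C3-TAg it was at 48.7 and 100, so milk-low cells were 2.05-fold above milk-high cells. The difference held without cells with G2M UMIs, with a log2 ratio of -0.97, and without cells with 0.5% or more dissociation UMIs, at -1.05. Sel1l, Syvn1 and Edem1 had C3-TAg log2 ratios of 0.18, -0.03 and -0.01.

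Set side by side, the log2 ratio of milk-high over milk-low cells was smaller in C3-TAg than in WT for most of the 35 genes. The difference had an interval below 0 for 26 genes, above 0 for Xbp1 and Ern1, and around 0 for 7. For Ern1 it was 0.65, but 0.09 without cells with at least 2 G2M UMIs. For Xbp1 these values were 0.41 and 0.37. The share of all genes with such intervals was not computed, so the 26 cannot be set against it. The median difference was -0.40 over the 35 genes and -0.06 over 12066 genes measured in both libraries. Leaving out cells with at least 2 G2M UMIs gave -0.37, leaving out cells with at least 2 UMIs of other cell types gave -0.39, and leaving out cells with 0.5% or more dissociation UMIs gave -0.45. TMM scaling gave -0.38 but is no check here. It adds 0.23 to every WT and 0.25 to every C3-TAg ratio, so it moves all differences by the same small amount. Since each library stands for 1 genotype, these differences compare 2 libraries, and genotype and library cannot be told apart.

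To follow milk output more finely, cells outside the hormone-sensing class were put into 8 bins of casein share, from under 0.1% to 8% and more of UMIs. In WT the sum of the 35 genes was 5436, 5472, 5583, 6210, 7541, 8259, 8558 and 8720 CPM from the lowest to the highest bin. It was higher at each of the 7 steps and 1.60-fold (1.57 to 1.64) higher in the last bin than in the first. In C3-TAg it was 6243, 6287, 6482, 6493, 6877, 7226, 7526 and 7950, again higher at each step, with a last to first ratio of 1.27. The C3-TAg line started above the WT line and ended below it. Without Xbp1 the ratios were 1.54 and 1.17. The bins also differed in other ways. The median depth per cell went from 7111 to 14462.5 UMIs over the WT bins and from 8344.5 to 12549 over those of C3-TAg. The first WT bin held 622 CPM of basal markers against 19.3 in the last. The G2M sum went from 2008 to 549 in C3-TAg, and the dissociation sum from 5949 to 2501 there and from 5472 to 3365 in WT.

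**Figure D3:**
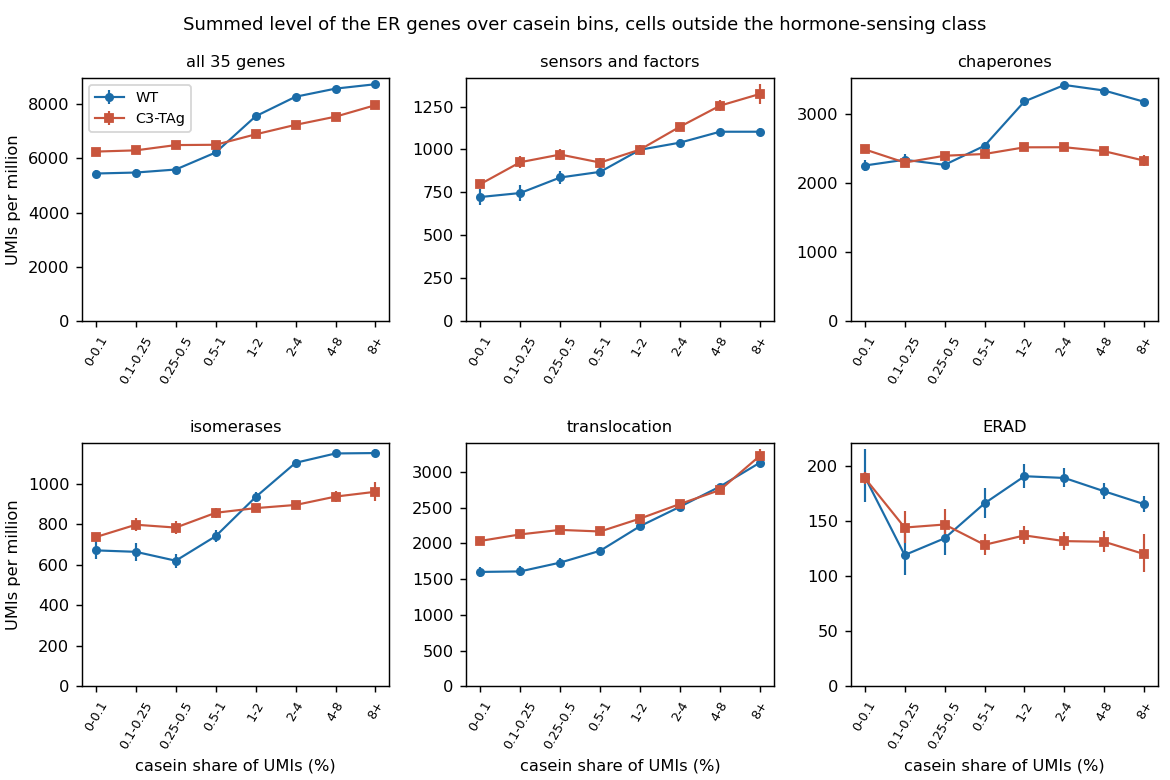
Summed level (CPM, axes from 0) of all 35 genes and of the 5 role groups in 8 bins of casein share for cells outside the hormone-sensing class, WT in blue circles and C3-TAg in red squares with 95% counting intervals. The translocation lines meet in the upper bins, whereas the chaperone line of WT climbs from 2250 to 3169 and that of C3-TAg stays between 2293 and 2514.

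The roles differed in how they followed casein. The translocation sum was 1602 CPM in the first and 3131 in the last WT bin, 1.95-fold, and 2036 and 3227 in C3-TAg, 1.59-fold. The isomerase sum was 671 and 1151 in WT and 736 and 960 in C3-TAg, ratios of 1.72 and 1.30. The chaperone sum was 2250 and 3169 in WT, with its highest value of 3413 between 2% and 4% casein, and 2483 and 2320 in C3-TAg, ratios of 1.41 and 0.93. The C3-TAg chaperone sum holds members that went both ways. Last to first ratios there were 0.66 (0.61 to 0.72) for Hsp90b1, 0.59 for Dnajb11 and 0.63 for Creld2, against 1.16 for Calr and 1.11 for Hspa5. The translocation genes did not all follow their sum either. In C3-TAg the ratio was 1.02 for Ssr2, 0.87 for Ssr3 and 0.88 for Sec61a1, and in WT it was 0.99 for Srp14 and 1.08 for Sec61a1. The ER-associated degradation sum was 190 and 165 in WT and 189 and 120 in C3-TAg. Within it, Herpud1 was at 103 in the first and 81.4 in the last WT bin, a ratio of 0.79 (0.66 to 0.95). Its WT level over the bins thus went the other way from its milk-high to milk-low ratio. In C3-TAg it was at 109 and 40.8.

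Xbp1 was at 159, 163, 264, 301, 415, 496, 557 and 569 CPM over the WT bins, 3.58-fold (3.12 to 4.12) from first to last. In C3-TAg it was at 131, 313, 397, 374, 477, 614, 754 and 797, 6.06-fold (5.68 to 6.47). From 0.1% casein upward every C3-TAg bin lay above its WT bin. Ssr4 had last to first ratios of 2.88 in WT and 2.93 in C3-TAg, and Sec61b of 3.09 and 2.71. Ssr4 levels ran from 263 to 758 and from 274 to 803, so the libraries were alike in this gene at both ends. Sdf2l1 ran from 17.1 in the first through 8.2 in the second to 47.0 in the last WT bin, and from 21.0 to 19.5 in C3-TAg. Hspa5 was highest in the middle bins of WT, at 1100 between 1% and 2% casein against 796 in the first and 906 in the last bin, and ran between 564 and 701 in C3-TAg. Ddit3 went from 29.0 down to 11.8 over the WT bins, and from 72.2 down to 19.5 in C3-TAg.

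**Figure D4:**
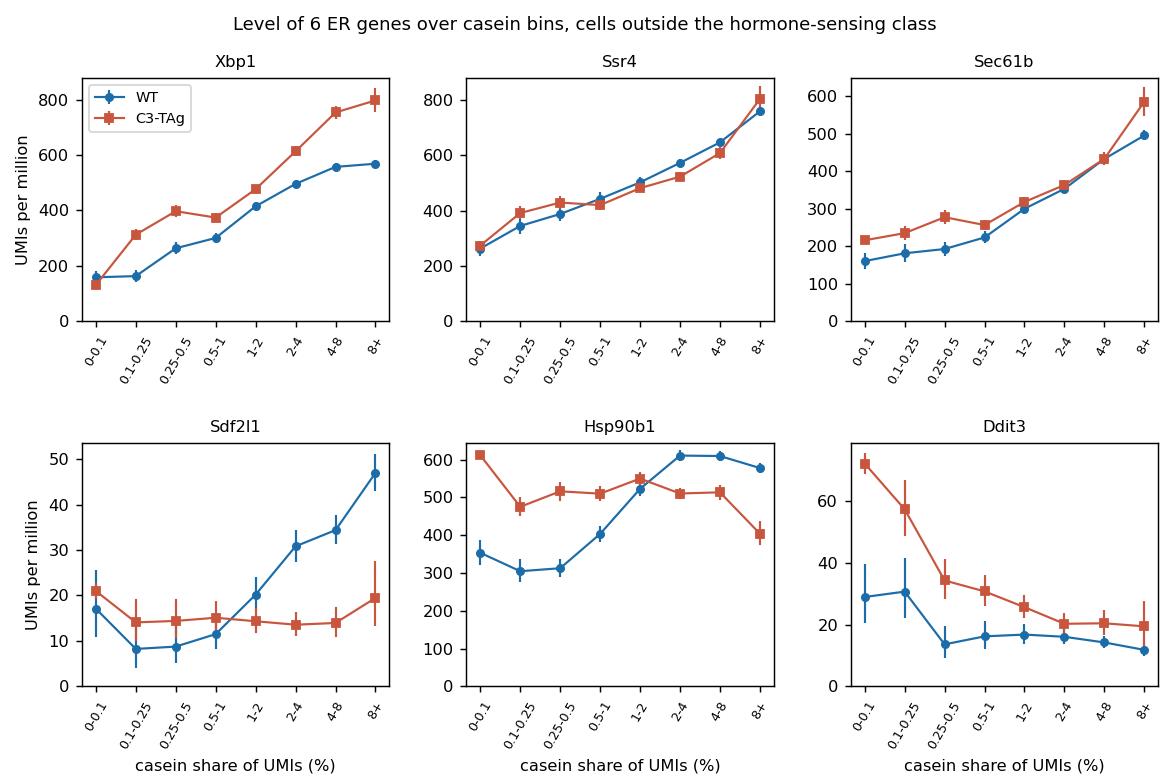
Level (CPM, axes from 0) of 6 of the genes in the same 8 bins of casein share, WT in blue circles and C3-TAg in red squares with 95% counting intervals. Xbp1, Ssr4 and Sec61b climb with casein in both libraries, Sdf2l1 and Hsp90b1 climb in WT and not in C3-TAg, and Ddit3 is highest in the lowest bins of C3-TAg.

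Part of the C3-TAg cells had under 2 G2M UMIs, and the same bins were read in these alone, a split chosen after the data were seen. The sum of the 35 genes was 5892 CPM in the first bin, of 624 cells, and 8037 in the last, of 84 cells. In C3-TAg cells with at least 2 G2M UMIs it was 6304 and 7836. The chaperone sum was 2215 and 2262 in the cells with fewer G2M UMIs, and 2529.5 and 2396 in the others. In the cells with fewer G2M UMIs, Hsp90b1 was at 451 in the first and 368 in the last bin, and Hspa5 at 576 and 622. Xbp1 was at 152 and 908 in the former and at 128 and 652 in the latter. Ddit3 was at 52.2 and 22.1, and at 75.7 and 16.0. Leaving out cells with UMIs of other cell types changed the first WT bin from 181 to 128 cells and its sum from 5436 to 5393.

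Hormone-sensing cells make little casein, with a median of 0.0386% of UMIs in WT and 0.0144% in C3-TAg, yet their sum of the 35 genes was not the lowest. In WT it was 1.14-fold (1.13 to 1.16) that of milk-low cells, with 9 genes higher and 4 lower, where 31.5% of 12224 genes were higher and 22.8% lower. The 9 and the 4 of 35 are both smaller shares than among all genes. The median log2 ratio of the 35 was 0.155, close to the 0.147 over all genes. In C3-TAg the ratio of the sums was 1.03, with 6 genes higher and 2 lower against 18.5% and 29.4% of 13225 genes. The median there was -0.02 against -0.19 over all genes. The genes higher in both libraries came from several roles. Sel1l, the scaffold of the degradation complex, was at 59.5 in WT hormone-sensing and 24.1 in milk-low cells, and at 49.2 and 21.5 in C3-TAg, ratios of 2.47 and 2.29. The other 3 genes of its role were within 1.5-fold in both libraries. Srp14 was at 421 and 180 in WT and 317 and 147 in C3-TAg. The cochaperone gene Dnajc3 was at 272 and 112 in WT and 205 and 112 in C3-TAg. Sdf2l1 and Pdia6 were the other genes higher in both libraries, but Sdf2l1 in C3-TAg only in 12 of 17 alternatives, with a lowest log2 ratio of 0.50. Lower in WT hormone-sensing cells were Xbp1, Atf4, Trib3 and Hspa5. The Xbp1 difference passed in 13 of 17 alternatives and was as small as -0.32. Atf4 was at 231 against 465, Trib3 at 11.5 against 30.6 and Hspa5 at 507 against 835. None of these 4 was lower in C3-TAg by the threshold. The 39 WT and 29 C3-TAg hormone-sensing cells with 0.5% or more casein were too few to follow over bins.

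In hormone-sensing cells, Atf4, Ddit3, Trib3 and Ssr2 were higher and Sdf2l1 was lower in C3-TAg than in WT. Of the 35 genes, 4 were higher and 1 lower in C3-TAg, where 22.7% of 12778 genes were higher and 9.16% lower, so fewer of the 35 differed than of all genes. The sum of all 35 was 6444 against 6300 CPM, a ratio of 1.02, and the median log2 ratio was 0.04 against 0.14 over all genes. Atf4 was at 395 in C3-TAg and 231 in WT, 1.71-fold (1.65 to 1.77). Ddit3 was at 45.5 and 18.6, 2.45-fold (2.18 to 2.74), and Trib3 at 25.4 and 11.5, 2.22-fold (1.91 to 2.57). These 3 genes were above 1.5-fold in each of the 17 alternatives, among them hormone-sensing cells with a Prlr or Foxa1 UMI and under 2 G2M UMIs. Xbp1, at 134 against 126, and the isomerases were close to equal. Ssr2 was at 277 against 166, 1.66-fold, and under 1.5-fold with TMM or without the cells with G2M UMIs. Sdf2l1 was at 30.2 against 45.3. TMM subtracts 0.18 from each log2 ratio here, which turns the median to -0.14 and the ratio of the sums to 0.90.

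**Figure D5:**
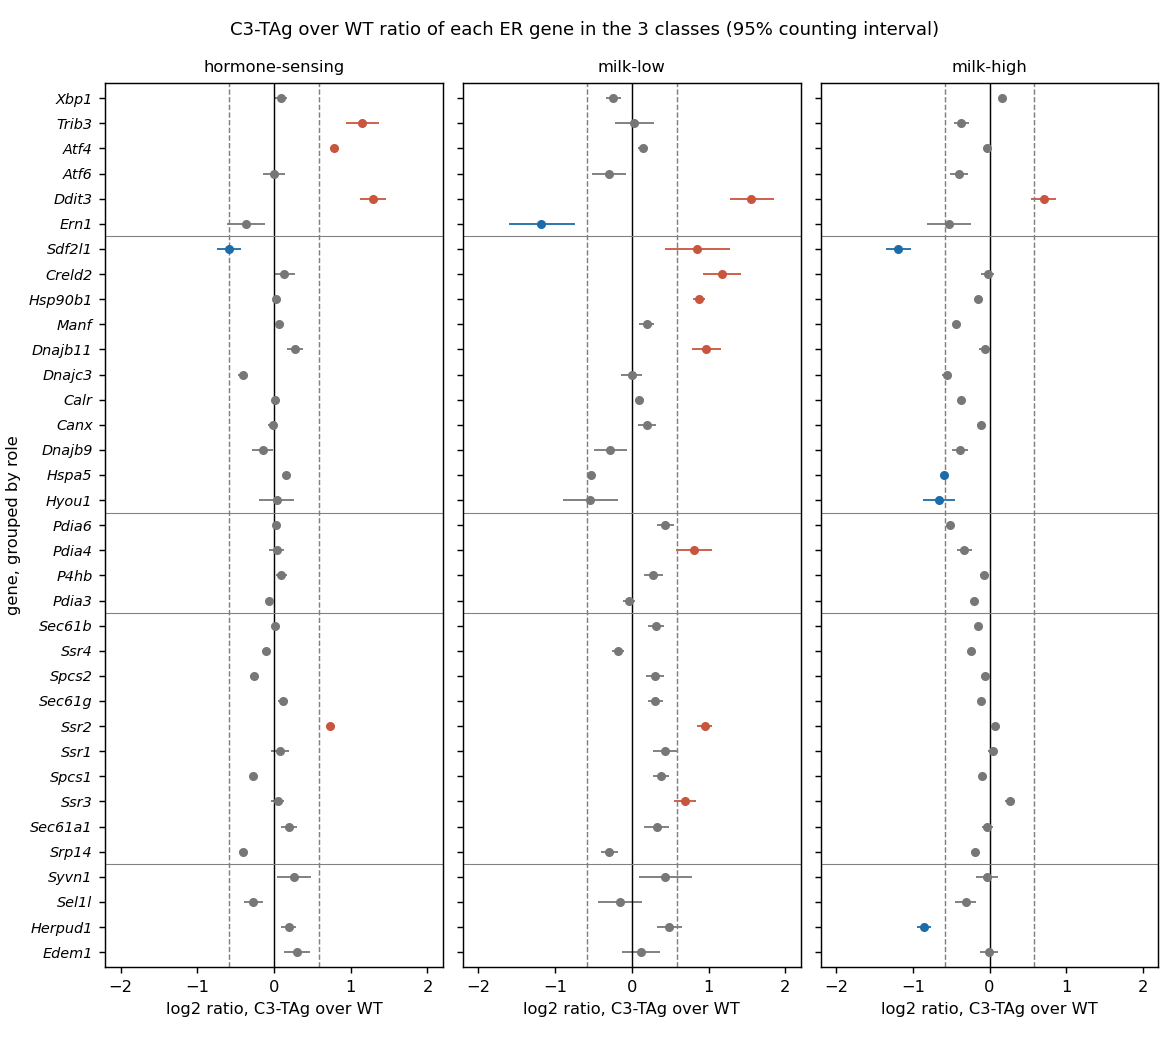
Log2 ratio of the level in C3-TAg over WT for each of the 35 genes in hormone-sensing, milk-low and milk-high cells, with 95% counting intervals, dashed lines at a ratio of 1.5, and genes past it in red (higher) or blue (lower). Ddit3 is red in all 3 classes, and Sdf2l1 is blue in hormone-sensing and milk-high cells and red in milk-low cells.

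In milk-high cells the summed level was lower in C3-TAg. Of the 35 genes, 1 was higher and 4 were lower in C3-TAg, against 28.7% and 11.2% of 12897 genes. The 4 of 35 is about the share among all genes, and the 1 of 35 is far below it. The sum was 7091 against 8207 CPM, a ratio of 0.86 (0.86 to 0.87), and the chaperone sum 2473 against 3225, a ratio of 0.77. The median log2 ratio was -0.15 (-0.37 to -0.06) against 0.27 over all genes. Hspa5 was at 662 against 997, 1.51-fold lower, Hyou1 at 9.57 against 15.1, Sdf2l1 at 14.5 against 33.0 and Herpud1 at 48.7 against 88.1. Hspa5 lies at the threshold and was within 1.5-fold in 4 alternatives, whereas Sdf2l1 and Herpud1 were past it in each. Ddit3 was the higher gene, at 23.7 against 14.6, but within 1.5-fold with TMM or without the cells with G2M UMIs. Milk output differed too, with caseins at 3.11% of summed UMIs in C3-TAg and 6.30% in WT. TMM subtracts 0.29 here, which gives 14 lower genes and 0 higher. The G2M sum was 1010 in C3-TAg and 14.6 in WT milk-high cells, and leaving out cells with at least 2 G2M UMIs gave 6 lower genes and 0 higher.

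In milk-low cells 8 of the 35 genes were higher and 1 lower in C3-TAg. Of 12812 genes, 37.1% were higher and 14.7% lower, so fewer of the 35 differed than of all genes. The sum was 6271 against 5510 CPM, a ratio of 1.14 (1.12 to 1.15). The median log2 ratio of 0.28 lay below the 0.35 of all genes. Ddit3 was at 67.1 against 22.8, 2.94-fold (2.42 to 3.60), Creld2 at 67.4 against 30.0, 2.25-fold (1.90 to 2.69), and Dnajb11 at 105 against 53.4, 1.96-fold (1.73 to 2.24). Ssr2 was at 412 against 214 and Hsp90b1 at 590 against 322. Sdf2l1, Pdia4 and Ssr3 were the other higher genes. Without cells with at least 2 G2M UMIs, 5 genes were higher, and Hsp90b1, Sdf2l1 and Pdia4 were within 1.5-fold. Ern1 was the lower gene, at 5.78 against 13.1. The classes compared here differ in casein share, in G2M levels and in secretory progenitor markers, such as Lcn2 at 990 against 4907 and Elf5 at 76.9 against 134, and their part was not tested further. TMM subtracts 0.24, which leaves a median of 0.04 and turns the ratio of the sums to 0.96.

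Other genes of the secretory pathway were read from 6 lists with 109 genes in the matrices, of which 107 or 108 were measured in a comparison. In WT, 25 of 108 were higher and 5 lower in milk-high than in milk-low cells, with a median log2 ratio of 0.25, against 9.56% and 22.1% of all genes and their median of -0.15. In C3-TAg 8 were higher and 9 lower, with a median of -0.05, against 9.72% and 28.4% of all genes and a median of -0.25. The C3-TAg share of higher genes lies below that of all genes. In WT the higher genes included 8 of 19 other folding and oxidation genes, 5 of 15 genes of N-glycosylation and glycan trimming and 4 of 15 other translocation genes. Fkbp11, a prolyl isomerase of the ER, was at 112 in milk-high and 34.0 in milk-low cells of WT and at 63.4 and 18.7 in C3-TAg, 3.29- and 3.38-fold. Tram1, a partner of the Sec61 channel, was at 176 against 74.3 in WT, 2.36-fold. In C3-TAg it was not among the 2 highest ratios of its list, the lower of which was 1.16-fold. Sec11c, a catalytic subunit of signal peptidase, was at 146 against 72.0 in WT and 103 against 67.8 in C3-TAg, 2.03- and 1.52-fold. Surf4, a cargo receptor for ER export, was 1.62-fold higher in WT and 1.77-fold in C3-TAg. Creb3l1, an ER-bound transcription factor, was at 23.7 against 6.16 in C3-TAg, 3.85-fold, but at 69.5 in milk-high and 39.1 in milk-low cells of WT, so both C3-TAg levels were below both of WT.

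Of 23 genes of the PERK branch and the amino acid response, 14 were higher and 3 lower in C3-TAg than in WT hormone-sensing cells, with a median log2 ratio of 0.68, where 22.7% and 9.16% of all genes were. The 2 highest ratios of the list, among genes at 20 CPM or more, were those of Psat1 and Mthfd2. Psat1, of serine synthesis, was at 22.6 against 2.0 CPM, 11.5-fold (8.62 to 15.7). Mthfd2, of mitochondrial folate metabolism, was at 67.3 against 9.7, 6.91-fold (6.03 to 7.95). Nupr1, a stress-induced transcription regulator, was the other way, at 2435 against 4150. The other 5 lists had medians between -0.07 and 0.22 in these cells. Cells with at least 2 G2M UMIs made up 20.4% of C3-TAg and 1.65% of WT hormone-sensing cells, and their part in this list was not tested. In milk-low cells 11 of the 23 genes were higher and 2 lower in C3-TAg, against 37.1% and 14.7% of all genes, among them the immediate early gene Atf3, at 957 against 204. In milk-high cells 5 were higher and 3 lower, close to the 28.7% and 11.2% of all genes. Between milk-high and milk-low cells the 23 genes went both ways. In WT 4 were higher and 4 lower in milk-high cells, against 9.56% and 22.1% of all genes. In C3-TAg 2 were higher and 7 lower, against 9.72% and 28.4%. Slc7a11 was 4.27-fold higher in milk-high cells in WT and 2.17-fold in C3-TAg, and Chac1 was 2.52-fold higher in WT. Atf3 was 3.07-fold higher in milk-low than in milk-high cells in WT and 6.22-fold in C3-TAg. Atf3 is also known to be induced by tissue dissociation, whose list levels are given above.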

How the data were processed

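The authors deposited 1 matrix of raw UMI counts per gene and cell for each library, which Cell Ranger 3.1.0 made against mm10, per the submitters' processing notes. The sources used here do not give how cell barcodes were called or how reads shared by near-identical gene copies were counted. Cells with at least 500 genes, at least 1000 UMIs and at most 10% mitochondrial UMIs were kept, 7406 of 8993 barcodes in WT and 8458 of 9575 in C3-TAg. The libraries held 91133082 and 91932121 UMIs and shared 20 barcodes. Scrublet, through scanpy 1.11.5, called 360 and 544 of the kept cells doublets, which were left out, leaving 7046 and 7914 cells.

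Counts were summed over the cells of a class with Python 3.11.15, and scaled to the UMIs outside the 8 genes that define the classes. Ratios of sums carry exact conditional Poisson intervals, and differences of log2 ratios carry normal approximations from the same counts. Intervals of a list's median cover the spread over its members. With 1 library per genotype there was no test. The 35 members, the other lists and the comparisons were chosen with earlier results of these data known. All members could be named, and of each wider list up to 2 genes with the highest and 2 with the lowest ratio per comparison, at 20 CPM (counts per 1000000 UMIs) or more in either group. Counts of the WT milk comparison were simulated with counting error only, for 10028 genes with at least 100 UMIs over both sums. Calls were made for 100.0% of genes raised 2-fold, 97.0% of genes lowered to 0.5 of their level and 3.08% of unchanged genes. Variation among cells and libraries was not simulated, and calls in the data start from 20 UMIs, so the shares do not cover these. TMM factors from edgeR 4.0.16 served as an alternative scaling only. Protein sequences were not analysed here.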

Additional observations from a re-analysis of the deposited data

Results flagged for a closer look

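For 9 of the 35 genes the milk-high to milk-low log2 ratio was above 0 in WT and below 0 in C3-TAg by both counting intervals. Dnajc3, Spcs1, Syvn1 and Edem1 had the same signs, but with an interval that held 0 in at least 1 library. The share of all genes that meet this rule was not computed. The 9 are a description of 1 library per genotype, and the difference was not tested. Herpud1, of ER-associated degradation, was at 0.30 in WT and -1.04 in C3-TAg, a difference of -1.34 with a counting interval of -1.53 to -1.16. Its WT sign depends on how casein output is cut. Over the casein bins of WT, its last to first ratio was 0.79 (0.66 to 0.95).

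Of the 9 genes, 4 encode chaperones or cochaperones. Sdf2l1 was at 1.59 in WT and -0.45 in C3-TAg, a difference of -2.03 (-2.47 to -1.59). Creld2 was at 1.06 and -0.13, a difference of -1.20 (-1.46 to -0.94). Hsp90b1 was at 0.83 and -0.19, a difference of -1.03 (-1.11 to -0.95). Dnajb11 was at 0.63 and -0.39, also a difference of -1.03 (-1.23 to -0.83). The isomerase gene Pdia4 was at 0.88 and -0.26, a difference of -1.14 (-1.39 to -0.89).

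Among the translocation genes, Ssr2 was at 0.68 and -0.19, a difference of -0.87 (-0.97 to -0.77). Ssr3 was at 0.34 and -0.09, a difference of -0.43 (-0.58 to -0.27), and Sec61a1 at 0.20 and -0.15, a difference of -0.35 (-0.53 to -0.18).

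The opposite signs depend on the scaling more than the differences do. With TMM the C3-TAg ratios of Hsp90b1, Creld2, Sec61a1, Ssr2 and Ssr3 were 0.05, 0.11, 0.10, 0.06 and 0.16, so that 4 genes were still opposite in sign, while the 9 differences ran from -2.02 to -0.33. Without cells with at least 2 G2M UMIs, Sdf2l1 was at 0.10 and Sec61a1 at 0.02 in C3-TAg, and the 9 differences ran from -1.59 to -0.18. The WT milk-low class, to which each WT ratio is set, held 576 cells.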

How the results depend on the processing

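With 1 library per group, no library could be left out. No paired analysis was possible because each group has 1 library. The alternatives were 16 planned ones, and 2 of cell choice added after seeing the data, namely leaving out cells with 0.5% or more dissociation UMIs and keeping hormone-sensing cells with a Prlr or Foxa1 UMI and under 2 G2M UMIs. Splits of the casein bins and the side-by-side scaling of the milk ratio were also added then. The median log2 ratio kept its sign in all alternatives in WT milk-high over milk-low, WT hormone-sensing over milk-low, and milk-high and milk-low cells between libraries. The C3-TAg milk-high over milk-low median, near 0, was above 0 in 12 of 17 alternatives and ran from -0.04 to 0.25. C3-TAg hormone-sensing over milk-low changed sign in 3 (-0.06 to 0.13) and hormone-sensing cells between libraries in 2.

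TMM scaling gave medians of 0.75 for WT milk-high over milk-low cells (0 genes lower) and 0.25 for C3-TAg. It gave -0.14 for hormone-sensing cells between libraries (3 lower), -0.44 for milk-high cells (0 higher, 14 lower), 3 lower genes in milk-low cells, and 0 lower in C3-TAg hormone-sensing over milk-low cells. The shift of all ratios by the scaling is its construction, and for the other settings the cause was not tested. With doublets kept, the hormone-sensing median between libraries was -0.0026, and hormone-sensing over milk-low cells had 2 lower genes in WT and 1 in C3-TAg.

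The 2 lower genes in WT milk-high cells became 1 with cells thinned to 2000 UMIs, with a casein limit of 0.25% or 1%, without cells of 0.25% to 1% casein or without those with UMIs of other cell types, and 0 without dissociation cells. The 1 lower gene in hormone-sensing cells between libraries became 0 with all UMIs in the denominator, with thinning or without dissociation cells, and 4 with a mitochondrial limit of 5%. In milk-low cells between libraries the 1 lower gene became 3 with thinning, and 2 with a casein limit of 0.25%, without cells of 0.25% to 1% casein, with a hormone-sensing limit of 10 or without cells between the limits of 2 and 10. The 8 higher genes there became 5 with a hormone-sensing limit of 10 or without G2M cells, and the latter left 0 higher genes in milk-high cells. In C3-TAg hormone-sensing over milk-low cells the 2 lower genes became 4 with a casein limit of 0.25%, without cells of 0.25% to 1% casein, with a hormone-sensing limit of 10 or without cells between 2 and 10. They became 1 with a mitochondrial limit of 5% or without dissociation cells, and 5 with Prlr or Foxa1 cells.

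From a log2 ratio of 0.32, with the share of all genes in brackets, 7 genes were higher (16.5%) and 4 lower (44.9%) in C3-TAg milk-high over milk-low cells. Between libraries 4 were lower in hormone-sensing (17.7%), 13 lower in milk-high (17%), and 14 higher (51.5%) and 3 lower (20.4%) in milk-low cells. In hormone-sensing over milk-low cells 14 were higher (42.3%) and 7 lower (30.9%) in WT, and 10 higher (26%) and 8 lower (42.1%) in C3-TAg. Of the 16 genes higher in WT milk-high cells, 10 kept the call in all alternatives, as did 3 of 4 in C3-TAg. In WT milk-low cells Sdf2l1, Ern1, Syvn1 and Hyou1 had the fewest UMIs, 52, 62, 79 and 81, and the 576 WT milk-low cells limit each ratio to that class.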
